A study of Mus musculus with 6 samples.

Results

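Frizzled proteins are the main receptors for secreted Wnt proteins, and the 10 mouse genes for them, *Fzd1* to *Fzd10*, were read from hippocampal RNA-Seq of 3 Phf21bΔ4/Δ4 and 3 Phf21b+/+ mice. Members were taken by gene symbol, and all 10 were among the 14477 genes listed in the deposited matrix. Phf21bΔ4/Δ4 mice (replicates 2, 3, and 6) carry on both alleles a CRISPR/Cas9 deletion in the fourth exon of *Phf21b*, which encodes a plant homeodomain protein that reads histone marks. Phf21b+/+ mice (replicates 5, 7, and 8) are the WT group. The deletion is in every cell of the body, all mice were untreated and on a C57BL/6J background, and the study states that its mice were young adult littermates of both sexes, without an age or sex for each library. The 4 Y-linked genes looked for were not listed, and all 6 libraries had *Xist* reads, between 2059 and 4532. Values are given as CPM, the read count of a gene scaled to the same effective library size in each mouse, and a group as its mean ± SD (n = 3 mice). The question addressed is which Wnt receptors differ in level between the genotypes.

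A Frizzled protein crosses the membrane as a class F G protein–coupled receptor and binds Wnt through a cysteine-rich domain outside the cell. With the co-receptors LRP5 and LRP6 it recruits Dishevelled, stops the destruction of β-catenin, and so turns on genes with TCF/LEF sites. Without LRP5 or LRP6 the same receptors feed planar cell polarity and calcium pathways. In the hippocampus, Wnt signaling is known for its roles in patterning of the tissue, adult neurogenesis in the dentate gyrus, and synapse formation. By sequence the family falls into the subgroups FZD1, FZD2, and FZD7, then FZD5 and FZD8, then FZD4, FZD9, and FZD10, and last FZD3 and FZD6.

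The libraries held between 20495605 and 24881257 reads on the listed genes, and every Frizzled gene had at least 15 reads in every library. *Phf21b* itself had 2.15, 3.57, and 3.87 CPM in Phf21bΔ4/Δ4 replicates 2, 3, and 6 and 6.50, 5.23, and 6.47 CPM in Phf21b+/+ replicates 5, 7, and 8, so the genotypes did not overlap. Its log2 fold change was -0.96 (SE 0.26, FDR 0.14 by limma's moderated test). Some libraries stood apart in markers of neighboring tissue. The 12 choroid plexus markers, which include *Ttr*, summed to 16165 CPM in Phf21b+/+ replicate 7, to 1019 CPM in replicate 8, and to between 28.5 and 89.7 CPM in the other 4 mice. The 15 medial habenula markers summed to between 32.1 and 38.7 CPM in Phf21bΔ4/Δ4 mice and to between 270 and 378 CPM in Phf21b+/+ mice, and 14 of the 15 were called lower. The marker lists were chosen with earlier results of these data known, so such counts are a description only. The 6 dentate granule cell markers summed to 142 and 139 CPM in Phf21bΔ4/Δ4 replicates 2 and 3, against between 522 and 646 CPM in the other 4 mice. The 6 CA1 markers summed to between 742 and 854 CPM in Phf21bΔ4/Δ4 mice and to between 259 and 317 CPM in Phf21b+/+ mice. Of the CA1 markers 2 were called higher (*Fibcd1* and *Mpped1*) and of the dentate markers 0 were called, and all 12 were listed, so that the defining genes of the labeled tissue were present.

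The RefSeq promoter table (GRCm38.p6) held a window for 6 of the 10 members, namely *Fzd1*, *Fzd4*, *Fzd5*, *Fzd7*, *Fzd9*, and *Fzd10*. Each window runs from 250 bases before the transcript start to 50 after it. The windows of *Fzd1* and *Fzd7* are shown up to the start because both genes had fewer reads in each Phf21bΔ4/Δ4 mouse than in any Phf21b+/+ mouse and these bases lie outside the annotated gene. Capitals mark CG pairs, and both run 5′ to 3′ on the strand of the gene.
Fzd1, chr5:4758217-4758466, minus strand: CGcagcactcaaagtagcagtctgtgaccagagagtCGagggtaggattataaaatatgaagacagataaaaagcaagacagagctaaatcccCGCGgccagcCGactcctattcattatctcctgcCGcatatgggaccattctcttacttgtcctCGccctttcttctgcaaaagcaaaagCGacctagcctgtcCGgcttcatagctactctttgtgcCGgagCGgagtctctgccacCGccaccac
Fzd7, chr1:59481897-59482146, plus strand: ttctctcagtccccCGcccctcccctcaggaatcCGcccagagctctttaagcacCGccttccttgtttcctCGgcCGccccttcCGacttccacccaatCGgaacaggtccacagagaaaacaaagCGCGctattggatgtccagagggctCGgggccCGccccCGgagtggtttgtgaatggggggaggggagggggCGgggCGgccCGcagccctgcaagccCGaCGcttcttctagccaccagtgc

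The stretch before *Fzd1* held 12 CG pairs and that before *Fzd7* held 17, and the median over all 32851 windows was 6. The GC content of the whole window was 54.0% for *Fzd1*, 66.7% for *Fzd7*, and 77.7% for *Fzd10*, beside a median of 52.7% over all windows. For the uncalled *Fzd4*, *Fzd5*, and *Fzd9* it was 72.7%, 75.7%, and 78.0%. The TCF/LEF core, searched on both strands as CTTTGAT and CTTTGAA, was in none of the 6 windows, and 3.73% and 5.14% of all windows hold these letters. The cAMP response element, searched as the full site TGACGTCA and the shorter TGACG within it, was also in none of the 6, beside 1.79% and 20.8% of all windows. These counts say only that the letters are not in those windows.

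To compare levels between genes, CPM was divided by the length of the exons in kb (CPM per kb). *Fzd3*, which steers axons and organizes planar polarity in the developing brain, had the highest level in both genotypes. In Phf21b+/+ mice it stood at 14.8 ± 0.897 CPM per kb and made up 38.7% of the summed level of the family. *Fzd1* came next at 6.20 ± 0.414 CPM per kb, below the range of *Fzd3* in every Phf21b+/+ mouse. *Fzd7*, *Fzd4*, and *Fzd6* followed at 4.67 ± 2.68, 3.15 ± 2.59, and 2.54 ± 0.950 CPM per kb. Their ranges over the 3 Phf21b+/+ mice overlapped with each other, and the ranges of *Fzd1* and *Fzd7* overlapped too. *Fzd9* (2.15 ± 0.144) overlapped with *Fzd6* above it and lay above *Fzd8* (1.66 ± 0.182 CPM per kb) in each mouse. *Fzd8* overlapped with *Fzd10* (1.26 ± 0.350), and *Fzd10* with *Fzd2* (1.22 ± 0.0944 CPM per kb). The lowest level was that of *Fzd5*, at 0.547 ± 0.150 CPM per kb, below *Fzd2* in each Phf21b+/+ mouse.

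**Figure D1:**
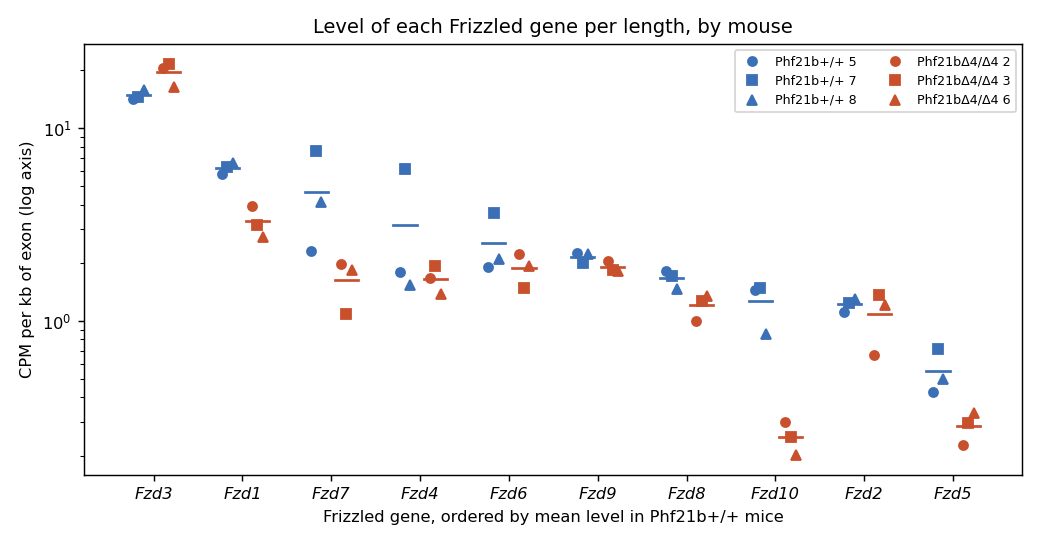
Level of the 10 Frizzled genes in CPM per kb of exon on a log axis, 1 point for each mouse and a bar for the mean of 3 mice, blue for Phf21b+/+ and orange for Phf21bΔ4/Δ4. *Fzd3* is highest, and the 3 orange points of *Fzd10* and *Fzd1* lie below the 3 blue points. Phf21b+/+ replicate 7 is the highest point of its group for *Fzd7*, *Fzd4*, and *Fzd6*, and also for *Fzd5* and *Fzd10*.

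In Phf21bΔ4/Δ4 mice *Fzd3* stood at 19.4 ± 2.78 CPM per kb and made up 59.6% of the summed level. The 10 genes summed to 32.5 ± 3.06 CPM per kb in Phf21bΔ4/Δ4 mice and to 38.1 ± 6.35 in Phf21b+/+ mice. The 2 sets of mice overlapped. For the 9 members without *Fzd3* the sum was 13.2 ± 0.795 CPM per kb in Phf21bΔ4/Δ4 mice. In Phf21b+/+ mice it was 23.4 ± 6.45 CPM per kb, highest in replicate 7 at 30.8, and the genotypes did not overlap. *Fzd3* was the only member with a positive log2 fold change on the deposited scaling, so leaving it out favors such a gap.

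Between the genotypes, *Fzd10* and *Fzd1* were differentially expressed, both lower in Phf21bΔ4/Δ4 mice, and the other 8 were not past the thresholds. To be called, a gene had to reach a fold change above 1.3 and a false discovery rate (FDR) below 0.1 in limma's moderated test over all genes, which are the limits in the study's methods. Of all 14477 genes 1.22% were called in either direction and 0.663% were called lower, beside 2 of the 10 Frizzled genes. Both are on the study's own list of differentially expressed genes from these mice, and the family was chosen with earlier results known. In 6 of the 10 members the values of the genotypes did not overlap, and this was so for 31.0% of all genes. Of these 6 members, 5 were lower in Phf21bΔ4/Δ4 mice (*Fzd1*, *Fzd5*, *Fzd7*, *Fzd8*, and *Fzd10*), beside 16.0% of all genes, and *Fzd3* was higher. The median log2 fold change of the 10 members was -0.56, and that of all genes was -0.019. The log2 fold change was negative for 9 members, beside 7593 of all 14477 genes. Of these 9, *Fzd2* and *Fzd9* turned to 0.027 and 0.069 under quantile normalization. Without Phf21b+/+ replicate 7, *Fzd4* and *Fzd6* stood at -0.015 and -0.099. Leaving out Phf21bΔ4/Δ4 replicate 6 raised the count of called Frizzled genes to 5 and that of all genes to 2830, while leaving out any other mouse gave 0 or 1 Frizzled genes and between 9 and 45 genes in all. In bulk tissue, fewer cells of a type and less RNA in each cell cannot be told apart.

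**Figure D2:**
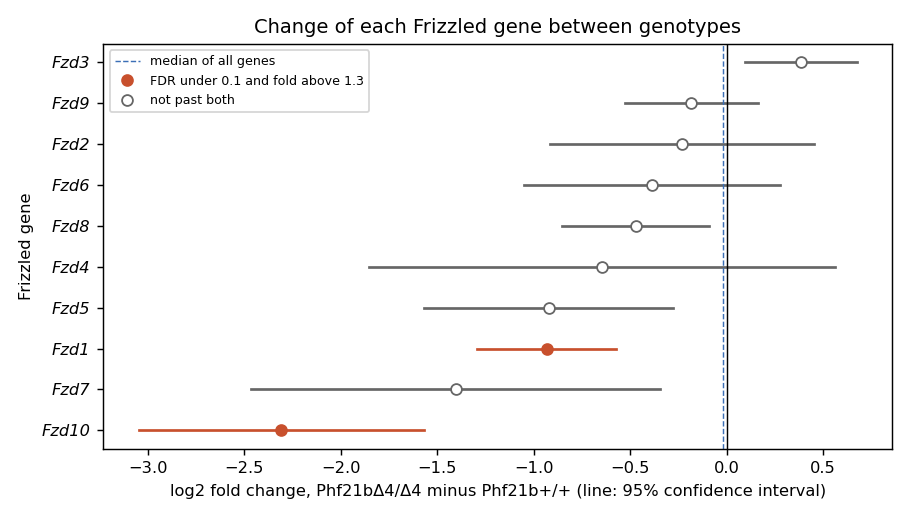
Log2 fold change of each Frizzled gene, Phf21bΔ4/Δ4 minus Phf21b+/+ (3 mice each), with its 95% confidence interval from limma, and a dashed line at the median of all genes (-0.019). Filled points are the called genes *Fzd10* (-2.31) and *Fzd1* (-0.93), open points the 8 that were not called, of which *Fzd2* and *Fzd9* change sign under quantile normalization.

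*Fzd10*, a receptor known from the dorsal neural tube of the embryo, showed the largest difference of the family. It lies on chromosome 5 of GRCm38 from 128600844 to 128604093, in a single exon. *Fzd10* had 0.970, 0.810, and 0.652 CPM in Phf21bΔ4/Δ4 replicates 2, 3, and 6, which were 23, 17, and 15 reads. In Phf21b+/+ replicates 5, 7, and 8 it had 4.70, 4.81, and 2.79 CPM, which were 99, 114, and 62 reads. The genotypes did not overlap, and the lowest Phf21b+/+ mouse was replicate 8. *Fzd10* was 4.95-fold lower in Phf21bΔ4/Δ4 mice (log2 fold change -2.31, SE 0.31, FDR 0.062 by limma's moderated test). With 1 added to CPM before the log the difference was -1.47, a scale that shrinks changes at low CPM, and fits on 5 mice gave log2 fold changes from -2.56 to -2.16. The limma FDR was 0.155 without Phf21bΔ4/Δ4 replicate 2, 0.120 without replicate 3, and 0.0216 without replicate 6. It was 0.113, 0.242, and 0.151 without Phf21b+/+ replicates 5, 7, and 8, so *Fzd10* was called in 1 of these 6 fits.

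*Fzd1*, a receptor for β-catenin signaling that has been placed at hippocampal synapses, was the other called gene. It lies on chromosome 5 from 4753839 to 4758035 on the minus strand, also in a single exon. *Fzd1* had 16.6, 13.2, and 11.4 CPM in Phf21bΔ4/Δ4 replicates 2, 3, and 6 and 24.1, 26.4, and 27.5 CPM in Phf21b+/+ replicates 5, 7, and 8. The genotypes were apart, and the Phf21b+/+ mice lay close together at 26.0 ± 1.74 CPM against 13.8 ± 2.63 CPM. For *Fzd1* the log2 fold change was -0.93 (SE 0.15, FDR 0.075 by limma's moderated test), which is 1.91-fold lower. Fits on 5 mice gave -1.08 to -0.81. The limma FDR of *Fzd1* was 0.176 without Phf21bΔ4/Δ4 replicate 3 and 0.113, 0.245, and 0.305 without Phf21b+/+ replicates 5, 7, and 8, so it was called in 2 of the 6 fits. With the same prior variance for all genes the FDR was 0.129.

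The medial habenula markers, like both receptors, were lower in the Phf21bΔ4/Δ4 mice. *Pou4f1*, a homeobox gene that defines these neurons, had at most 2 reads in any Phf21bΔ4/Δ4 mouse and from 286 to 458 reads in the Phf21b+/+ mice. All 15 markers of the list had lower values in each Phf21bΔ4/Δ4 mouse than in any Phf21b+/+ mouse, beside 16.0% of all genes. The list was chosen with earlier results of these data known, so this count is a description only. Most of its genes are on the study's own list of differentially expressed genes from these mice. In Phf21b+/+ replicates 5, 7, and 8 the 15 markers summed to 270, 274, and 378 CPM. Among these mice *Fzd10* was lowest in replicate 8 and *Fzd1* was highest there. Of the 9 thalamus markers 8 were listed and 2 were called, both lower (*Tcf7l2* and *Shox2*), with a summed level between 150 and 278 CPM in Phf21bΔ4/Δ4 mice and between 246 and 509 CPM in Phf21b+/+ mice. The part of this tissue in the levels of *Fzd10* and *Fzd1* was not tested. The genes whose log2 CPM was most like that of *Fzd1* over the 6 libraries were *Syt15*, *Scn9a*, *Chat*, *Ice2*, and *D130009I18Rik*, with Pearson's r between 0.987 and 0.996. *Chat*, the enzyme that makes acetylcholine, is on the medial habenula list. It had 1, 0, and 0 reads in Phf21bΔ4/Δ4 replicates 2, 3, and 6, and *D130009I18Rik* had a mean of 0.0141 CPM there. For both, the r rests on values at or near 0 reads in these mice. For *Fzd10* they were *Trim12a*, *Ppara*, *Alg3*, *Ccdc17*, and *Tcf7l2*, with r between 0.990 and 0.993. These are the highest of 14154 genes compared over the same 6 libraries, which share the split into genotypes, and they are a description only.

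**Figure D3:**
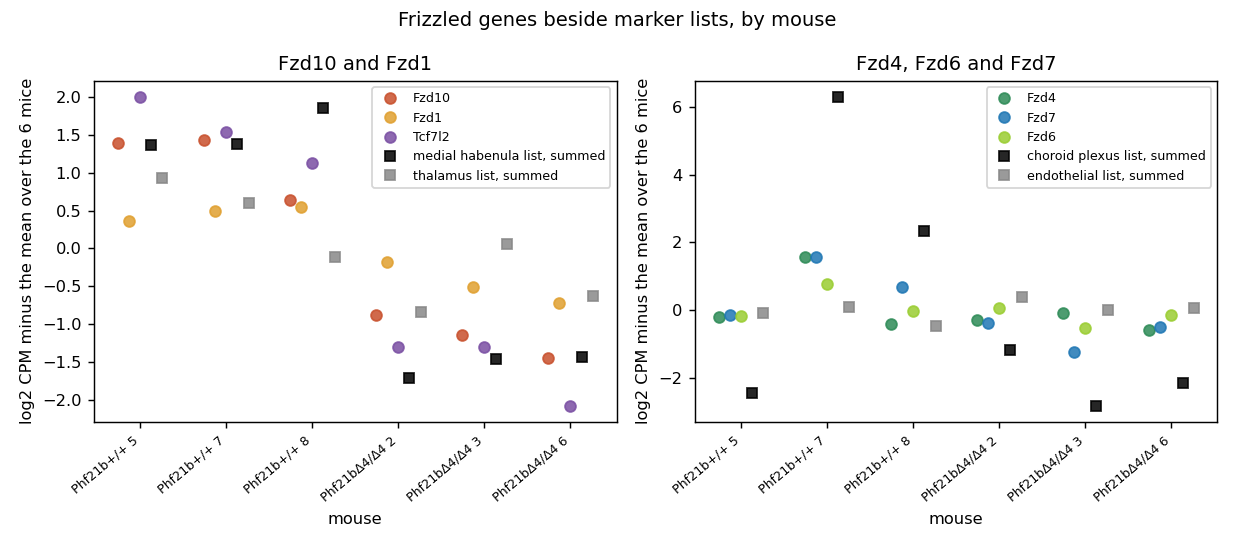
Log2 CPM of Frizzled genes (circles) and of summed marker lists (squares) in each of the 6 mice, as the difference from the mean over the 6 mice. On the left, *Fzd10*, *Fzd1*, *Tcf7l2*, and the medial habenula list lie above 0 in all Phf21b+/+ mice and below 0 in all Phf21bΔ4/Δ4 mice. The thalamus list overlaps between the genotypes, with Phf21bΔ4/Δ4 replicate 3 above Phf21b+/+ replicate 8. On the right *Fzd4*, *Fzd7*, *Fzd6*, and the choroid plexus list are each highest in Phf21b+/+ replicate 7.

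*Fzd7*, *Fzd4*, and *Fzd6* were set apart by Phf21b+/+ replicate 7, which was also the highest Phf21b+/+ mouse for *Fzd5* and *Fzd10*. *Fzd7*, a β-catenin receptor of stem cells in several tissues, had 8.94, 4.91, and 8.26 CPM in Phf21bΔ4/Δ4 replicates 2, 3, and 6 and 10.4, 34.4, and 18.7 CPM in Phf21b+/+ replicates 5, 7, and 8. The genotypes did not overlap, and Phf21b+/+ replicate 5 lay nearest to the Phf21bΔ4/Δ4 mice. *Fzd7* had a log2 fold change of -1.40 (SE 0.45, FDR 0.16 by limma's moderated test), and without Phf21b+/+ replicate 7 it was -0.97 with an FDR of 0.36. *Fzd4*, the receptor for Norrin in blood vessels of the retina and brain, had between 9.22 and 12.9 CPM in Phf21bΔ4/Δ4 mice. It had 12.01, 41.2, and 10.3 CPM in Phf21b+/+ replicates 5, 7, and 8, so replicate 7 was high and the other Phf21b+/+ mice lay within the range of the Phf21bΔ4/Δ4 mice. Its log2 fold change of -0.64 (95% confidence interval -1.85 to 0.56) became -0.015 without replicate 7. *Fzd6*, which acts in planar polarity together with *Fzd3*, had between 7.14 and 10.8 CPM in Phf21bΔ4/Δ4 mice and 9.11, 17.5, and 10.1 CPM in Phf21b+/+ replicates 5, 7, and 8. Its log2 fold change of -0.39 (95% confidence interval -1.05 to 0.28) became -0.099 without replicate 7.

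All 12 choroid plexus markers were listed and 1 was called lower (*Otx2*). *Kcne2*, a channel subunit on that list, had 2417 reads in Phf21b+/+ replicate 7, 195 in replicate 8, and between 0 and 6 in the other 4 mice. The 9 endothelial markers summed to between 161 and 209 CPM in Phf21bΔ4/Δ4 mice and to 151, 169, and 115 CPM in Phf21b+/+ replicates 5, 7, and 8, so replicate 7 lay within the range of the other mice. The 6 ependymal markers summed to 173 CPM in replicate 7 and to between 15.6 and 128 CPM in the other mice. The 7 meningeal fibroblast markers summed to 47.8 CPM in replicate 7 and to between 16.2 and 182 CPM in the other mice. In Phf21bΔ4/Δ4 replicates 2 and 3 *Dcn* alone made up 152 and 101 CPM of that sum. Only *Col1a2* was highest in Phf21b+/+ replicate 7, at 21.6 CPM against 4.35 to 14.3 CPM in the other mice. The rest of the list, *Dcn*, *Col1a1*, *Col3a1*, *Lum*, *Slc6a13*, and *Slc22a6*, had lower CPM in Phf21b+/+ replicate 7 than in Phf21b+/+ replicate 5. For *Col1a1* this was 3.33 against 5.69 CPM, and for *Lum* 3.80 against 3.99 CPM. The part of choroid plexus, ependymal, and meningeal RNA in the levels of *Fzd4*, *Fzd5*, *Fzd6*, and *Fzd7* was not tested.

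The pair *Fzd5* and *Fzd8* had lower values in every Phf21bΔ4/Δ4 mouse, though neither was called. *Fzd5*, a receptor needed for eye development and for vessels of the yolk sac, had 1.56, 2.05, and 2.31 CPM in Phf21bΔ4/Δ4 replicates 2, 3, and 6 and 2.94, 4.94, and 3.46 CPM in Phf21b+/+ replicates 5, 7, and 8. The difference on the log2 scale was -0.92 (SE 0.27, FDR 0.15 by limma's moderated test) and -0.71 without Phf21b+/+ replicate 7. The gene overlaps *Gm38058* on the other strand over 1233 exonic bases, and the strand setting of the read counting is not given in the sources used here. *Fzd8* had 5.99, 7.53, and 8.05 CPM in Phf21bΔ4/Δ4 mice and 10.8, 10.3, and 8.72 CPM in Phf21b+/+ mice, a log2 fold change of -0.47 (SE 0.16, FDR 0.17 by limma's moderated test). Leaving out Phf21bΔ4/Δ4 replicate 6 put both genes past the threshold, with an FDR of 0.0717 for *Fzd5* and 0.0816 for *Fzd8*.

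*Fzd3* was the only member with a positive log2 fold change on the deposited scaling, while under quantile normalization *Fzd2* and *Fzd9* were positive too. It had 260, 276, and 208 CPM in Phf21bΔ4/Δ4 replicates 2, 3, and 6 and 180, 185, and 202 CPM in Phf21b+/+ replicates 5, 7, and 8. The genotypes were apart, and the nearest pair was Phf21bΔ4/Δ4 replicate 6 and Phf21b+/+ replicate 8. Its log2 fold change was 0.39 (SE 0.12, FDR 0.16 by limma's moderated test), so *Fzd3* was not called, and the FDR was 0.0257 without Phf21bΔ4/Δ4 replicate 6. The summed dentate granule cell markers were lowest in Phf21bΔ4/Δ4 replicates 2 and 3, at 142 and 139 CPM, against 522 CPM in replicate 6. The summed CA1 markers, like *Fzd3*, were higher in each Phf21bΔ4/Δ4 mouse than in any Phf21b+/+ mouse. Whether the makeup of the tissue has a part in the level of *Fzd3* was not tested.

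*Fzd9* and *Fzd2* overlapped between the genotypes. *Fzd9*, known from the developing and adult hippocampus, had 4.68, 4.19, and 4.18 CPM in Phf21bΔ4/Δ4 replicates 2, 3, and 6 and 5.17, 4.56, and 5.08 CPM in Phf21b+/+ replicates 5, 7, and 8. Only Phf21b+/+ replicate 7 lay among the Phf21bΔ4/Δ4 values, and the log2 fold change of -0.18 had a 95% confidence interval from -0.53 to 0.16. *Fzd2*, a receptor for Wnt5a in limb and face development, had 2.45, 5.001, and 4.44 CPM in Phf21bΔ4/Δ4 replicates 2, 3, and 6 and between 4.08 and 4.76 CPM in Phf21b+/+ mice. Phf21bΔ4/Δ4 replicate 2 was the lowest mouse, and the log2 fold change of -0.23 (95% confidence interval -0.91 to 0.45) turned to 0.084 without it. Of the 75-base stretches of each member's transcripts, the length of the reads, none was found in another gene for 8 of the 10 members. The exceptions were *Fzd5* with 15.7%, all in *Gm38058*, and *Fzd6* with 1.596%, all in *Gm26704*.

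Outside the receptors, 4 of the 76 listed genes on lists of the Wnt pathway were called, all lower in Phf21bΔ4/Δ4 mice, beside 1.22% of all genes called and 0.663% called lower. The lists hold 90 genes, and the 14 others were not listed in the matrix. *Smo*, a class F receptor of Hedgehog signaling, is counted among the 76 as a list of its own. The called genes were *Wls*, *Wif1*, *Tcf7l2*, and *Axin2*, and the median log2 fold change of the 76 was -0.12. All 4 are on the study's own list of differentially expressed genes from these mice. The pathway lists were chosen with earlier results of these data known, so their counts are a description only. Of these 76 genes 25 were called without Phf21bΔ4/Δ4 replicate 6, when 2830 of all 14477 genes were, 2 without replicate 3, and 1 without any other mouse. None of the 12 listed Wnt ligand genes was called, with a median of 0.029. *Wnt2b* had 0.636 ± 0.486 CPM in Phf21bΔ4/Δ4 mice and 2.91 ± 1.01 CPM in Phf21b+/+ mice, a log2 fold change of -2.50 (SE 0.69, FDR 0.14 by limma's moderated test). *Wnt9b* overlapped between the genotypes, at -2.13 (SE 0.84, FDR 0.20, limma).

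**Figure D4:**
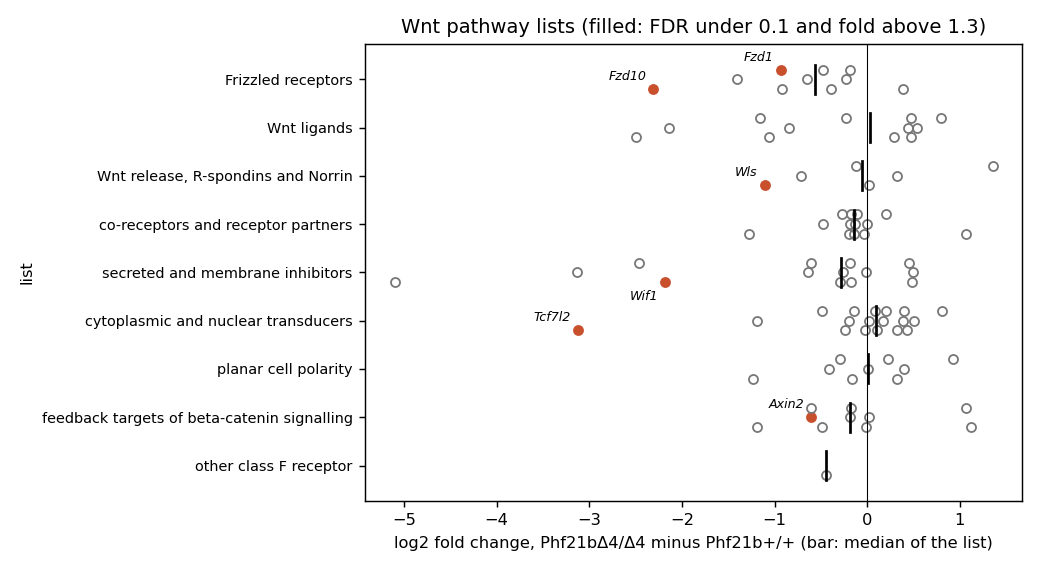
Log2 fold change of each listed gene in the Frizzled family and in 8 lists of the Wnt pathway, Phf21bΔ4/Δ4 minus Phf21b+/+ (3 mice each), with a bar at the median of each list. Filled points are the called genes, all of them left of 0, and the median of the Frizzled genes (-0.56) lies further left than that of each list shown. Genes that are on more than 1 list, such as *Lef1*, are drawn in each. The list of the other class F receptor holds only *Smo*, of Hedgehog signaling.

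Of the genes that release or boost the ligand, *Wls*, the carrier that brings Wnt proteins to the cell surface, was called. It had 39.9, 41.9, and 42.5 CPM in Phf21bΔ4/Δ4 replicates 2, 3, and 6 and 74.6, 117, and 81.2 CPM in Phf21b+/+ replicates 5, 7, and 8. The 3 Phf21bΔ4/Δ4 mice were nearly alike and the Phf21b+/+ mice were all higher, with replicate 7 highest. The log2 fold change of *Wls* was -1.11 (SE 0.17, FDR 0.067 by limma's moderated test), and without replicate 7 it was -0.91 with an FDR of 0.0998. *Wls* was called in 2 of the 6 fits on 5 mice, without Phf21b+/+ replicate 7 or without Phf21bΔ4/Δ4 replicate 6. The R-spondin gene *Rspo2* overlapped between the genotypes, with a log2 fold change of 1.35 (SE 0.63, FDR 0.24, limma), and so did *Rspo1*, at -0.71 (SE 0.38, FDR 0.29, limma). None of the 13 co-receptors and receptor partners was called. Its members with the largest changes, the Wnt5a receptor *Ror2* at -1.28 (SE 0.60, FDR 0.24, limma) and the R-spondin receptor *Lgr5* at 1.07 (SE 0.46, FDR 0.22, limma), overlapped between the genotypes. *Lrp6* stood at -0.13 with a 95% confidence interval from -0.48 to 0.22. *Smo*, the class F receptor of Hedgehog signaling, stood at -0.44 (95% confidence interval -0.95 to 0.06).

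Of the 14 listed inhibitors *Wif1*, a secreted protein that binds Wnt, was called. It had 0.717, 0.857, and 1.13 CPM in Phf21bΔ4/Δ4 mice and 5.27, 3.97, and 3.15 CPM in Phf21b+/+ mice, so the genotypes were apart. For *Wif1* the log2 fold change was -2.18 (SE 0.30, FDR 0.062 by limma's moderated test), and of the fits on 5 mice only that without Phf21bΔ4/Δ4 replicate 6 called it. *Sfrp5*, a secreted decoy for Wnt, had from 0 to 6 reads in the Phf21bΔ4/Δ4 mice and from 20 to 93 in the Phf21b+/+ mice, and was not called (FDR 0.15, limma). *Sostdc1*, which is also on the choroid plexus list, had 1542 reads in Phf21b+/+ replicate 7 and between 24 and 204 reads in the other mice, and was not called. The 18 listed transducers had a median of 0.096, and only *Tcf7l2*, a TCF factor, was called. It had 71, 63, and 40 reads in the Phf21bΔ4/Δ4 mice. The Phf21b+/+ mice, replicates 5, 7, and 8, had 624, 508, and 360 reads, and all 3 were higher. *Tcf7l2* was 8.68-fold lower in Phf21bΔ4/Δ4 mice (log2 fold change -3.12, SE 0.30, FDR 0.024 by limma's moderated test) and is also on the thalamus list. Its FDR was 0.133 without Phf21b+/+ replicate 7, the only mouse whose absence ended the call. *Bcl9*, a partner of β-catenin, stood at 0.81 (SE 0.31, FDR 0.19, limma).

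Of the 10 listed feedback targets of β-catenin only *Axin2*, which the pathway turns on and which then dampens it, was called. It had 20.7, 23.1, and 20.8 CPM in Phf21bΔ4/Δ4 mice and 31.8, 32.8, and 33.5 CPM in Phf21b+/+ mice, with little spread in either group. *Axin2* had a log2 fold change of -0.60 (SE 0.083, FDR 0.062 by limma's moderated test) and was called without Phf21bΔ4/Δ4 replicate 3 or 6 but not without any other mouse. The other 9 had log2 fold changes between -1.19 for *Lef1* and 1.12 for *Nkd2*, whose FDR values were 0.22 and 0.19 (limma). In the planar cell polarity list, none of 9 genes was called, and the genotypes were apart in 6 of them, 3 lower and 3 higher in Phf21bΔ4/Δ4 mice. Over all genes 31.0% were apart in this way and 16.0% were apart and lower. *Vangl1* stood at -1.23 (SE 0.25, FDR 0.12, limma) and *Celsr2* at 0.93 (SE 0.29, FDR 0.16, limma).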

How the data were processed

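Hippocampal RNA-Seq values of 6 mice, 1 library each, were used, and each column was matched to a mouse by its label, with 0 columns left unused. The authors trimmed single-end reads with Trimmomatic 0.39, mapped them to GRCm38 with STAR 2.7.3a, summarized them per gene with featureCounts of Subread 1.6.4, scaled them with edgeR, and deposited log2 CPM. Their stated filter asks for a CPM of 1 or more in 2 samples, which 14439 of the 14477 listed genes met on the values used here. Whole reads were worked out from the steps between values (100% whole within 0.1), and CPM was computed from the same steps. Depth was between 20495605 and 24881257 reads per mouse.

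The deposited log2 values of all 14477 genes were fitted with limma 3.58.1 in R 4.3.3 (lmFit, eBayes with trend, 2-sided) in place of the authors' count test, with no covariate, since the labels give no batch, sex, or litter for a mouse. Benjamini-Hochberg adjustment ran over all genes, and the test was checked on simulated data. The simulated noise was independent for each gene, so the check does not cover variation that many genes share within a mouse. Positions and exon lengths came from GENCODE M21 on GRCm38 and promoter windows from RefSeq. Tables were made with Python 3.11.15.

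The Frizzled genes, the 8 pathway lists, and the marker lists were chosen with earlier results of these data known. Named were the members, *Phf21b*, the called genes of each pathway list with its 2 largest uncalled changes at a mean CPM of 1 or more, the 5 genes most like each called member, and marker genes that were called, abundant, or at 0. *Lrp6* was named after its values were seen. Of the 6 CA2 and CA3 markers 0 were called, and of the 10 astrocyte markers 1 was called (*Aqp4*, lower).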

Additional observations from a re-analysis of the deposited data

How the results depend on the processing

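No paired analysis was possible because the genotypes share no replicate number. The count of called Frizzled genes was 2, and it was 7 with the mice weighted by arrayWeights, 1 with the same prior variance for all genes, 1 with only genes of a mean log2 CPM of at least 1 (which leaves *Fzd10* out), and 0 at an FDR under 0.05. For the pathway lists it was 4, with 32 under arrayWeights and 1 at an FDR under 0.05. Over all genes it was 176, with 3549 under arrayWeights, 75 with the same prior variance, 101 with the filter on the mean, and 25 at an FDR under 0.05. With 1 mouse left out, the counts ranged from 0 to 5 for Frizzled genes, from 1 to 25 for the pathway lists, and from 9 to 2830 for all genes, and all 3 were highest without Phf21bΔ4/Δ4 replicate 6. The cause was not tested. Robust empirical Bayes, log2(CPM + 1), log2(CPM + 0.1), quantile normalization, centring on the median, and voom kept *Fzd1* and *Fzd10* called. Under log2(CPM + 1) the log2 fold change of *Fzd10* was -1.47 in place of -2.31, and that of *Wif1* was -1.42 in place of -2.18. With 1 mouse left out, the log2 fold change of *Fzd2* ranged from -0.43 (without Phf21bΔ4/Δ4 replicate 3) to 0.084 (without replicate 2). It was -0.62 under arrayWeights, where limma called it (FDR 0.089), and 0.027 under quantile normalization, where that of *Fzd9* was 0.069. Levels per length from the longest transcript moved by less than 1 SD for all 10 members. With 3 mice in each group, the intervals of *Fzd2*, *Fzd4*, *Fzd6*, and *Fzd9* reach from a decrease to an increase.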
